A study of Mus musculus with 12 samples.

Results

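A list of 10 genes commonly used to recognise macrophages was followed through RNA sequencing of the proximal colon. The genes were taken by symbol (Csf1r, Cd68, Adgre1, Cx3cr1, Lyz2, C1qa, C1qb, C1qc, Mrc1 and Cd163), and all 10 were found among the 38924 Ensembl genes of the count tables, of which 37607 carried a mouse symbol. The tissue came from 12 separate animals, 6 of them APC Min/+ and 6 WT. All were female C57BL/6 mice of 6 weeks, and the labels name no treatment. APC Min/+ mice carry a heterozygous germline point mutation in Apc, so the allele is present in every cell of the animal and read counts do not check it. The study asked which colonic genes differ at an age before polyps form. Mice of the 2 genotypes were housed in separate cages, so cage and genotype cannot be told apart.

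Macrophages of the gut wall take up bacteria that cross the epithelium and clear dying cells, and they are known for doing so with little inflammation. Monocytes from blood renew most of those under the epithelium, while long-lived macrophages lie around vessels, nerves and muscle. Their survival depends on the receptor encoded by Csf1r, which binds the ligands Csf1 and Il34, and intestinal macrophages carry the receptor Cx3cr1, whose ligand is Cx3cl1. The other members encode a surface receptor of uncertain function (Adgre1, the F4/80 antigen), a lysosomal glycoprotein (Cd68), and scavenger and lectin receptors (Cd163 and Mrc1). They also encode an enzyme that breaks bacterial cell walls (Lyz2) and the 3 chains of the complement protein C1q (C1qa, C1qb and C1qc).

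Total counts on genes ranged from 50313805 to 197914821 per mouse. At the shallowest library 3 counts, taken as the floor, corresponded to 0.0596 CPM (the count scaled to the library total, for genes also by the TMM factor of the library), and the lowest count of any member in any mouse was 320. Epithelial Epcam ran from 1239 to 1624 CPM over the 12 mice, and the smooth muscle myosin Myh11 from 1423 to 2401 CPM, so the tissue labelled mucosa also held muscle RNA. In 3 of 5 smooth muscle genes APC Min/+ mice were higher at an unadjusted p below 0.05 with edgeR's quasi-likelihood test. Of all genes tested, 3.46% were higher at that level. The summed CPM of the 5 smooth muscle genes ran from 3773 to 5721 in APC Min/+ mice and from 3959 to 5061 in WT mice. A pair of APC Min/+ libraries, M10_2 and M13_1, stood apart through genes of the hindmost body axis. The summed CPM of Hoxa13, Hoxb13, Hoxd12 and Hoxd13 was 468 in M10_2 and 554 in M13_1, against 1.03 to 2.93 in the 10 other mice. Both also had the least fat RNA. The summed CPM of 5 adipocyte genes was 4.07 in M10_2 and 9.96 in M13_1, against 33.1 to 270 in the 10 other mice. Log2 differences that moved clearly without these 2 mice are given with and without both. The median log2 difference of the 5 smooth muscle genes was 0.41, or 0.29 without both. In that smaller fit 2 of the 5 had an unadjusted p below 0.05 (same quasi-likelihood test).

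None of the 10 macrophage genes passed the test for a difference between APC Min/+ and WT mice. With edgeR's quasi-likelihood test over 20311 genes, 0 of 10 passed a Benjamini-Hochberg false discovery rate (FDR) below 0.05 with a fold change of at least 2, and 0% of all genes tested did. The lowest FDR of any gene was 0.908. Among the members 0 had an unadjusted p below 0.05 in either direction, where 3.46% of all genes were higher in APC Min/+ mice and 1.81% were lower at that level, which is 1071 genes in all. Over all genes the other tools called 27 genes (DESeq2), 12 genes (edgeR's exact test) and 15 genes (edgeR's likelihood ratio test), and none of these was a member. The study itself, using edgeR, did report genes past the same thresholds, and its list of them holds no member. On the log2 scale the fitted differences of the members lay between -0.32 and 0.26 with standard errors between 0.195 and 0.307. By sign 3 members were higher and 7 lower in APC Min/+ mice, or 6 higher and 4 lower without M10_2 and M13_1. The members' median was -0.05, beside -0.01 over all genes. A value smaller than its own standard error was found for 9 of 10 members and for 63.4% of all genes. In bulk tissue, fewer macrophages and less RNA per macrophage cannot be told apart.

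**Figure D1:**
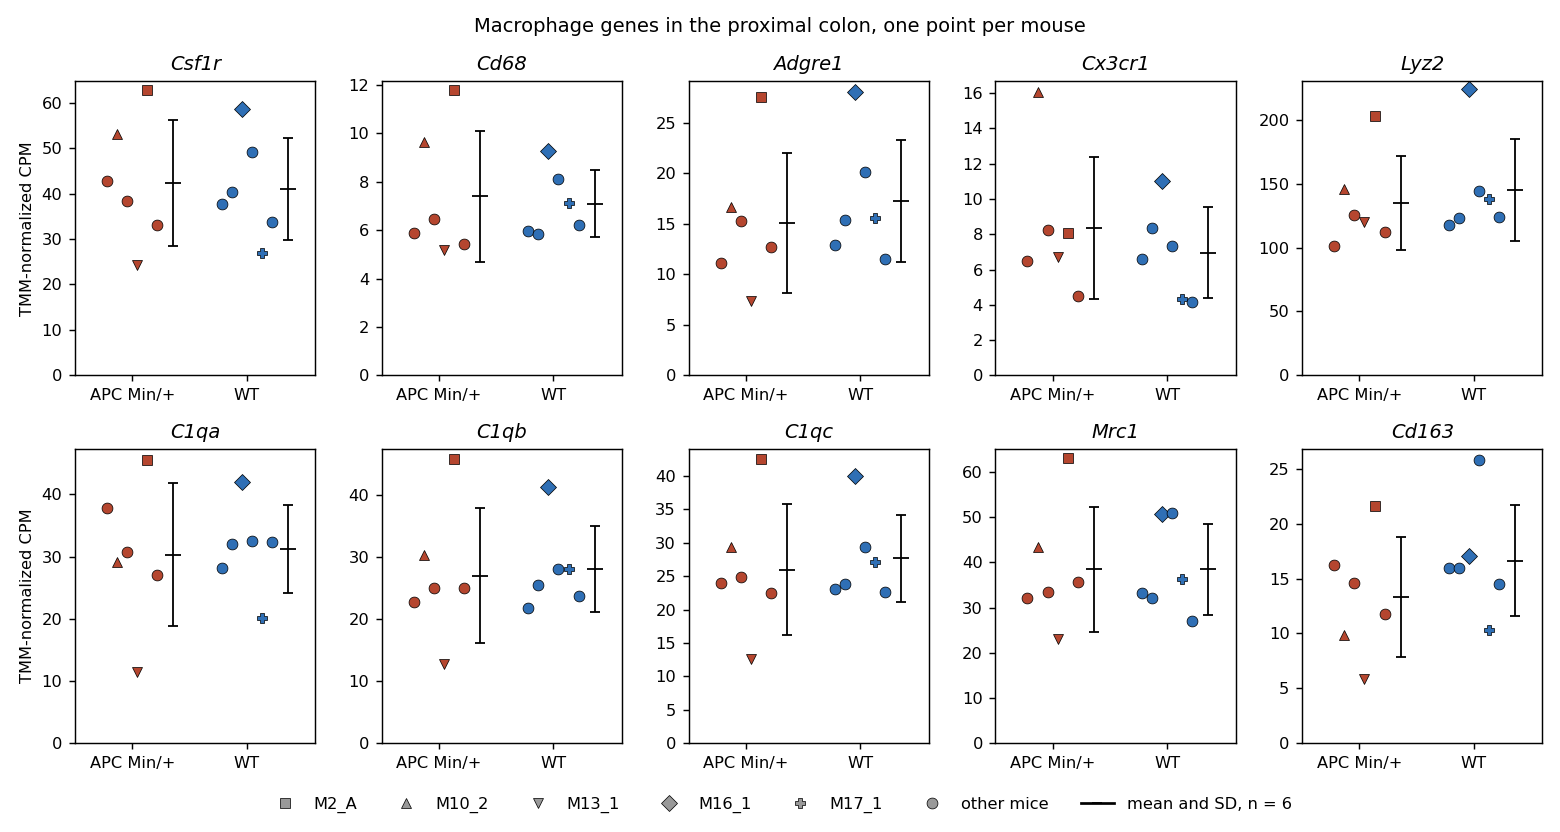
Level of each macrophage gene (vertical axes, TMM-normalized CPM, from 0) in the 6 APC Min/+ mice (red) and the 6 WT mice (blue), 1 point per mouse, with the mean and SD of each genotype as bars. In all 10 panels the genotypes overlap, M2_A or M16_1 lies at or near the top in most, and M13_1 is lowest in 8.

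Csf1r, the receptor on which macrophage survival depends (ENSMUSG00000024621.9, chromosome 18, 61100598 to 61132149 of GRCm38, plus strand, counted over 4885 exonic bases), ran from 24.3 to 62.8 CPM in APC Min/+ mice (median 40.5) and from 26.9 to 58.5 CPM in WT mice (median 39.0). M2_A was highest, WT mouse M16_1 second and M13_1 lowest. The log2 difference was 0.05 ± 0.229 (SE), with an FDR of 0.975 by edgeR's quasi-likelihood test, and 0.11 without M10_2 and M13_1. The spread within each genotype was far wider than the step between the means, which were 42.4 ± 13.9 CPM in APC Min/+ mice and 41.0 ± 11.3 CPM in WT mice (SD, n = 6 each).

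Cx3cr1, the chemokine receptor of intestinal macrophages (ENSMUSG00000052336.6, chromosome 9, 119901616 to 120069879 of GRCm38, minus strand), ran from 4.49 to 16.09 CPM in APC Min/+ mice (median 7.38) and from 4.14 to 10.99 CPM in WT mice (median 6.96). The top value belonged to M10_2, which lay far above the next APC Min/+ mouse at 8.26 CPM. The fitted log2 difference of 0.26 ± 0.307 (SE; FDR 0.911, edgeR's quasi-likelihood test) was the highest among the members, and it turned to -0.03 without M10_2 and M13_1. Leaving out M10_2 alone also brought it to -0.04.

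Adgre1, the gene of the F4/80 antigen (ENSMUSG00000004730.8, chromosome 17, 57358691 to 57483527, plus strand), ran from 7.31 to 27.6 CPM in APC Min/+ mice (median 13.98) and from 11.6 to 28.1 CPM in WT mice (median 15.5). M16_1 and M2_A were highest, at nearly the same level in opposite genotypes. The log2 difference was -0.19 ± 0.292 (SE; FDR 0.918, edgeR's quasi-likelihood test), and leaving out M16_1 brought it to 0.01. Without M10_2 and M13_1 it was -0.05.

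Cd68, which encodes a glycoprotein of lysosomes and endosomes (ENSMUSG00000018774.7, chromosome 11, 69664213 to 69666153, minus strand, counted over 1257 exonic bases), held the lowest count of any member, 320 in the shallowest library. It ran from 5.19 to 11.8 CPM in APC Min/+ mice (median 6.15) and from 5.83 to 9.27 CPM in WT mice (median 6.68). M2_A was highest and M10_2 second, and the log2 difference was 0.06 ± 0.217 (SE; FDR 0.966, edgeR's quasi-likelihood test).

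Mrc1, the mannose receptor (ENSMUSG00000026712.2, chromosome 2, 14229392 to 14332057, plus strand), ran from 23.0 to 63.1 CPM in APC Min/+ mice (median 34.6) and from 27.2 to 51.0 CPM in WT mice (median 34.8). The means were 38.5 ± 13.7 and 38.4 ± 10.1 CPM (SD, n = 6 each), so the log2 difference rounded to 0.00 with a standard error of 0.228 (FDR 0.9999, edgeR's quasi-likelihood test), and was 0.09 without M10_2 and M13_1. M2_A was highest, followed by the WT mice M18_2a and M16_1, and M13_1 was lowest.

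Cd163, the scavenger receptor that takes up haemoglobin bound to haptoglobin (ENSMUSG00000008845.3, chromosome 6, 124304656 to 124330527, plus strand), had the widest range of the members, with a 4.38-fold step from the lowest to the highest mouse. It ran from 5.89 to 21.6 CPM in APC Min/+ mice (median 13.2) and from 10.4 to 25.8 CPM in WT mice (median 15.98). M13_1 at 5.89 and M10_2 at 9.88 CPM were the lowest values and WT mouse M18_2a was the highest. This was the only member whose log2 difference, -0.32, exceeded its standard error of 0.278, with an unadjusted p of 0.271 and an FDR of 0.910 by edgeR's quasi-likelihood test. Without M10_2 and M13_1 it was -0.05.

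**Figure D2:**
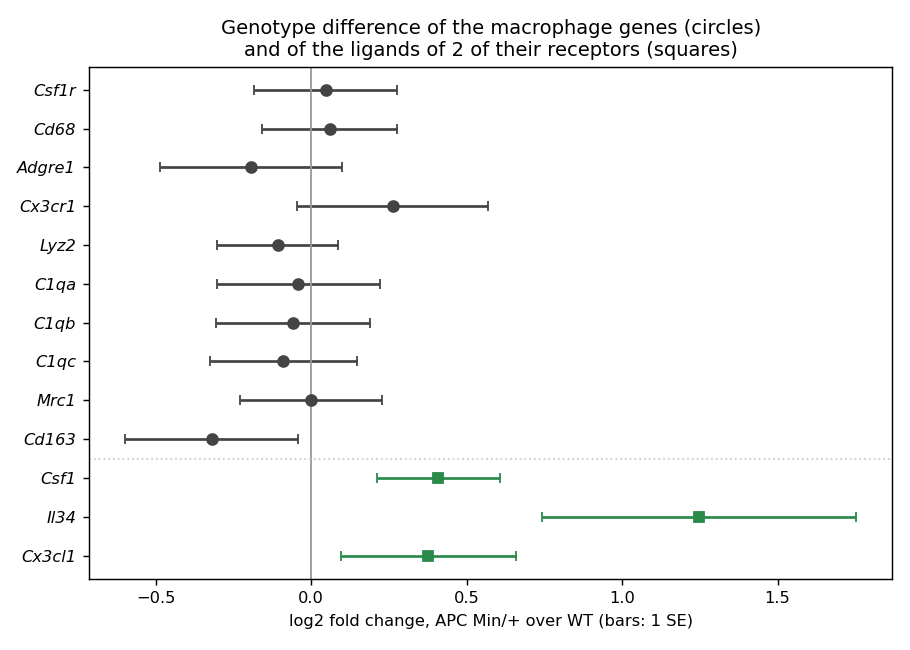
Fitted log2 fold change of APC Min/+ over WT mice (horizontal axis) with 1 standard error on each side, for the 10 macrophage genes (circles) and for Csf1, Il34 and Cx3cl1, the ligands of Csf1r and Cx3cr1 (squares). The bars of 9 members cross 0, that of Cd163 lies below it, and the 3 ligands lie above it.

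Lyz2, the lysozyme of macrophages and monocytes (ENSMUSG00000069516.7, chromosome 10, 117277331 to 117282321, minus strand), gave the most counts of the members. It lies beside Lyz1 (117287797 to 117292868 on the same strand), the lysozyme of Paneth cells, and the 2 coding sequences of 447 bases differ at 22 positions (95.1% identity). The first 150 bases of each are shown because they hold 14 of those 22 positions, which reads need in order to be placed on 1 of the 2 genes. Capitals mark the positions where the genes differ, and the sequences are from GENCODE M21 transcripts.
Lyz2: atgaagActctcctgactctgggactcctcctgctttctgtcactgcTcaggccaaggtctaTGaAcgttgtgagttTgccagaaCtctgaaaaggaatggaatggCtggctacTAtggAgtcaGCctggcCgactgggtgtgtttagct
Lyz1: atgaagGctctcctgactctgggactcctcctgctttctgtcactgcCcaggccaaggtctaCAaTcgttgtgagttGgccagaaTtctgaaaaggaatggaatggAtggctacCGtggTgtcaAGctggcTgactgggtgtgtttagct
The longest stretch without a difference was 118 bases, and 24 of the 1217 windows of 100 bases along the Lyz2 transcript (1.97%) occurred unchanged in Lyz1. How the authors' counting treated reads that fit both genes was not stated, so a small part of either count may belong to the other.

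Lyz2 ran from 102 to 203 CPM in APC Min/+ mice (median 123) and from 118 to 224 CPM in WT mice (median 131). M16_1 and M2_A were clearly highest, and the remaining 10 mice lay between 102 and 146 CPM. The log2 difference was -0.11 ± 0.195 (SE; FDR 0.925, edgeR's quasi-likelihood test). Lyz1 was far lower, at 6.21 to 24.0 CPM in APC Min/+ mice and 7.32 to 21.5 CPM in WT mice, with a log2 difference of -0.21 (FDR 0.917, edgeR's quasi-likelihood test), or 0.03 without M10_2 and M13_1. Its highest values were in M18_2b and M19_1, at 24.0 and 21.5 CPM. The Paneth cell defensin Defa24 was at 11.8 CPM in M18_2b and 6.27 CPM in M19_1, at most 0.562 CPM in the other mice and at 0 in M10_2, M13_1 and M17_2. Itln1, of the same list of Paneth cell genes, was also highest in M18_2b and M19_1, but Ang4 was highest in M10_2 (21.3 CPM) and Mmp7 in M17_1 (4.96 CPM). Lyz2 in M18_2b and M19_1 was 125 and 123 CPM, close to its median in either genotype.

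C1qa, C1qb and C1qc encode the chains of C1q, the protein that starts the classical complement pathway and tags dying cells for uptake. The genes lie side by side on the minus strand of chromosome 4 in GRCm38, with C1qb at 136880129 to 136886187, C1qc at 136889804 to 136893065 and C1qa at 136895917 to 136898803. They are ENSMUSG00000036905.8, ENSMUSG00000036896.5 and ENSMUSG00000036887.5, in that order, and none of their transcripts shared a window of 100 bases with another.

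C1qb ran from 12.8 to 45.7 CPM in APC Min/+ mice (median 25.0) and from 21.8 to 41.2 CPM in WT mice (median 26.7). C1qc ran from 12.7 to 42.6 CPM in APC Min/+ mice (median 24.5) and from 22.7 to 39.9 CPM in WT mice (median 25.4). C1qa ran from 11.5 to 45.6 CPM in APC Min/+ mice (median 29.9) and from 20.14 to 41.9 CPM in WT mice (median 32.2). For all 3 chains M2_A was highest, M16_1 second and M13_1 lowest. The log2 differences were -0.06 ± 0.247 for C1qb, -0.09 ± 0.236 for C1qc and -0.04 ± 0.261 for C1qa (SE), with FDRs between 0.949 and 0.981 by edgeR's quasi-likelihood test. Without M10_2 and M13_1 all 3 turned positive, at 0.08, 0.04 and 0.18.

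Because the chains form 1 complex, their proportions within a mouse were compared as ratios of RPKM (CPM divided by the counted exon length in kilobases, which allows levels of genes of different length to be set side by side). The ratio of C1qc to C1qb was nearly fixed, from 0.506 to 0.597 over the 12 mice, with an SD of 0.0761 on the log2 scale. The ratio of C1qa to C1qb moved more, with an SD of 0.319 on the log2 scale, from 0.749 in WT mouse M17_1 to 1.75 in APC Min/+ mouse M8_2. Neither ratio passed a test between genotypes, with log2 differences of -0.02 for C1qc to C1qb (exact permutation test, two-sided, p = 0.628) and 0.00 for C1qa to C1qb (p = 0.991, same exact permutation test). The next lowest ratio of C1qa to C1qb was that of M13_1, at 0.942.

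**Figure D3:**
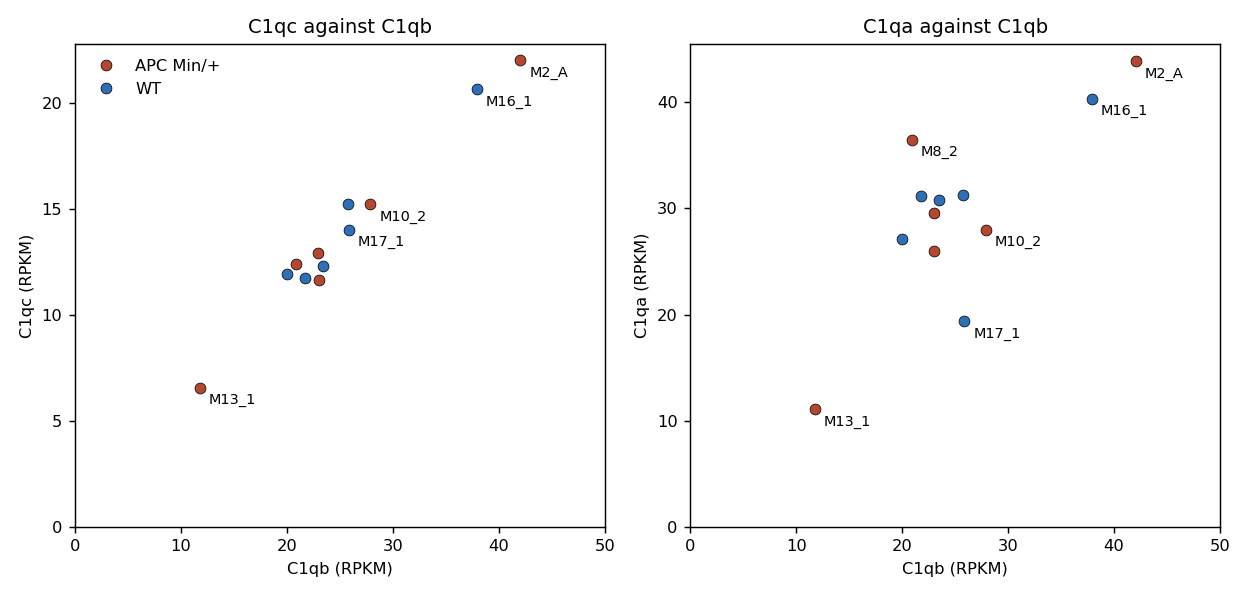
Level of C1qc (left) and of C1qa (right) against C1qb in the same mouse, all in RPKM, with APC Min/+ mice in red and WT mice in blue. The C1qc points lie close to 1 line through M13_1 at the bottom and M16_1 and M2_A at the top, while C1qa of M17_1 lies below the other mice of like C1qb and that of M8_2 above them.

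The promoter sequences of C1qb, C1qc and Mrc1 are given because these genes varied together over the mice. Each is 300 bases of the sense strand, from 250 bases before the RefSeq transcription start to 50 bases after it (RefSeq on GRCm38.p6, with C1qb at chr4:136886151-136886450 and C1qc at chr4:136892865-136893164 on the minus strand and Mrc1 at chr2:14229164-14229463 on the plus strand). Capitals mark GAGGAA or its reverse complement TTCCTC, the purine-rich core recognised by PU.1, the myeloid transcription factor encoded by Spi1.
C1qb: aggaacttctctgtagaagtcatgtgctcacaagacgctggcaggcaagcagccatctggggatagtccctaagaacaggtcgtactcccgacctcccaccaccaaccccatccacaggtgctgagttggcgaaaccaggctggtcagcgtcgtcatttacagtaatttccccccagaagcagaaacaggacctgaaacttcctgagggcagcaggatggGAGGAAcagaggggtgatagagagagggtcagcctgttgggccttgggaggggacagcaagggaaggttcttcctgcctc
C1qc: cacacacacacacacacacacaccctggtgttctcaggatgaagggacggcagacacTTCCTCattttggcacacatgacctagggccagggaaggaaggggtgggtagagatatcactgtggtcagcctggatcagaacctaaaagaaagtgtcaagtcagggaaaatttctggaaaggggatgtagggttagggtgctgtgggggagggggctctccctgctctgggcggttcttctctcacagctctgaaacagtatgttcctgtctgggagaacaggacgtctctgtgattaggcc
Mrc1: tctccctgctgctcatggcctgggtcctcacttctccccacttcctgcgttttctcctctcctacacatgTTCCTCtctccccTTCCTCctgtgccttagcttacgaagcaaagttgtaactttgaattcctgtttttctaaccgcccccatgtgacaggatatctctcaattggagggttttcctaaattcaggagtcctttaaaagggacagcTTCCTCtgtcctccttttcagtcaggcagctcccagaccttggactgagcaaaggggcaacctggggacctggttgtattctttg
The letters occurred once in C1qb (beginning at base -30 from the start), once in C1qc (at base -193) and 3 times in Mrc1. Of the 7 members with a RefSeq promoter entry 4 held them, Cd68 being the fourth, and the promoters of Cx3cr1, Lyz2 and Cd163 did not hold these letters within the window. They were present in 28.3% of 32851 mouse promoters of the same length. The other members are Csf1r, Adgre1 and C1qa. Such a match describes the sequence and not a site in use.

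Set side by side per length, the levels spanned a wide range. Mean RPKM over the 12 mice was 111 for Lyz2, 29.6 for C1qa, 25.3 for C1qb, 13.9 for C1qc, 8.54 for Csf1r and 6.47 for Mrc1. It was 5.76 for Cd68, 4.99 for Adgre1, 3.33 for Cd163 and 2.05 for Cx3cr1, the lowest. The order held between neighbours in all 12 mice for Lyz2 over C1qa, C1qb over C1qc and C1qc over Csf1r. It was turned in 2 or 3 mice for C1qa over C1qb (10 of 12), Mrc1 over Cd68 (9 of 12), Cd68 over Adgre1 (10 of 12) and Cd163 over Cx3cr1 (10 of 12), and in 1 mouse for Csf1r over Mrc1 and for Adgre1 over Cd163. The means of Mrc1 and Cd68 differed by less than the SD of either (1.93 and 1.63 RPKM), and the same held for C1qa and C1qb and for Cd68 and Adgre1.

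The members varied together from mouse to mouse in both genotypes. The summed CPM of the 10 genes ran from 229 to 532 in APC Min/+ mice and from 300.0 to 522 in WT mice. M2_A was highest in 6 members and among the top 2 in 9, M16_1 was highest in 2 and among the top 2 in 7, and M13_1 was lowest in 8. Over the 45 pairs the median Pearson r of log2 CPM was 0.78 (0.67 for Spearman's rho), and 20 pairs exceeded 0.8. Each member's median r with the 20301 other genes tested lay between 0.01 and 0.05. This median takes positive and negative r together, so it does not tell how often genes reach a high r. All points of such a correlation share the library and its scaling, which bears on every pair alike. The median within genotypes was 0.82 over the APC Min/+ mice and 0.69 over the WT mice. It was 0.57 after the 2 mice farthest from the median had been left out of each pair, 0.64 without M2_A and M16_1 and 0.72 without M10_2 and M13_1.

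The closest pair was C1qb and C1qc, with r = 0.99 (permutation test, two-sided, p = 1e-05, the smallest that 100000 resamples can give) and rho = 0.86 (permutation p = 0.00071). It kept r = 0.95 without its 2 farthest mice, M13_1 and M2_A, and was 0.99 within APC Min/+ and 0.97 within WT mice. Adgre1 came next with C1qc, at r = 0.96 (permutation p = 1e-05) and rho = 0.90 (permutation p = 0.00022), and r = 0.93 without M13_1 and M16_1. These p-values are unadjusted for the 45 pairs. Lyz2 and C1qa were at r = 0.43 (permutation p = 0.168) and rho = 0.43 (permutation p = 0.170), and at r = -0.10 without M2_A and M16_1, so that pair rested on those 2 mice.

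Cx3cr1 and Cd163 followed the others least. The median r of Cx3cr1 with the 9 other members was 0.45 and that of Cd163 was 0.65. With each other they gave r = 0.08 (permutation p = 0.798) and rho = 0.20 (permutation p = 0.545). M10_2 had the highest Cx3cr1 and the second lowest Cd163 of all mice, and without M10_2 and M13_1 the r of the pair was 0.60. With C1qa, Cd163 gave r = 0.85 (permutation p = 0.00106), rho = 0.83 (permutation p = 0.00144) and r = 0.57 without its farthest mice, M13_1 and M17_1.

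The mice with high macrophage genes also stood out in other cell types. M2_A had the highest summed CPM of 5 adipocyte genes (270, where the other APC Min/+ mice lay at 103 or below and WT mice between 33.1 and 152) and of 6 B and plasma cell genes (2127, against 188 to 564 in the other APC Min/+ mice and 499 to 2032 in WT mice). M16_1 had the highest sum of 5 blood genes, 259, where APC Min/+ mice ran from 25.6 to 135 and the other WT mice from 33.5 to 102. No gene of these 3 lists was at 0 in any mouse. Neutrophil genes were sparse throughout, at a summed 0.718 to 6.67 CPM for 7 genes, with M16_1 and M2_A highest. The part of these cells in the members' levels was not tested.

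Since the total macrophage signal varied, each member was also expressed relative to Csf1r in the same mouse, as the log2 ratio of RPKM. Of the 9 ratios 0 had a p below 0.05 between genotypes (exact permutation test, two-sided, smallest p it allows 0.00216). The largest difference was that of Cd163, whose ratio to Csf1r ran from 0.202 to 0.414 in APC Min/+ mice (median 0.380) and from 0.318 to 0.572 in WT mice (median 0.446). Its log2 difference was -0.40 (exact permutation p = 0.0844). The lowest ratios were those of M10_2 and M13_1, and without them the difference was -0.14 (exact permutation p = 0.367). Without M16_1, whose ratio of 0.318 was the lowest of the WT mice, it was -0.50 (exact permutation p = 0.0108, unadjusted). Each of the 12 mice was left out in turn for each of the 9 ratios, and this was the only p below 0.05.

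Adgre1 relative to Csf1r was 0.391 to 0.660 in APC Min/+ mice and 0.516 to 0.870 in WT mice, with a log2 difference of -0.27 (exact permutation p = 0.139). Cx3cr1 relative to Csf1r was 0.167 to 0.396 in APC Min/+ mice and 0.160 to 0.271 in WT mice, a log2 difference of 0.21 (exact permutation p = 0.411). The highest values were again M10_2 and M13_1, and without them the difference was -0.10 (exact permutation p = 0.619). WT mouse M17_1 had the highest ratio to Csf1r for 6 of the 9 members (Cd68, Adgre1, Lyz2, C1qb, C1qc and Mrc1), its Csf1r of 26.9 CPM being the second lowest of the 12 mice.

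**Figure D4:**
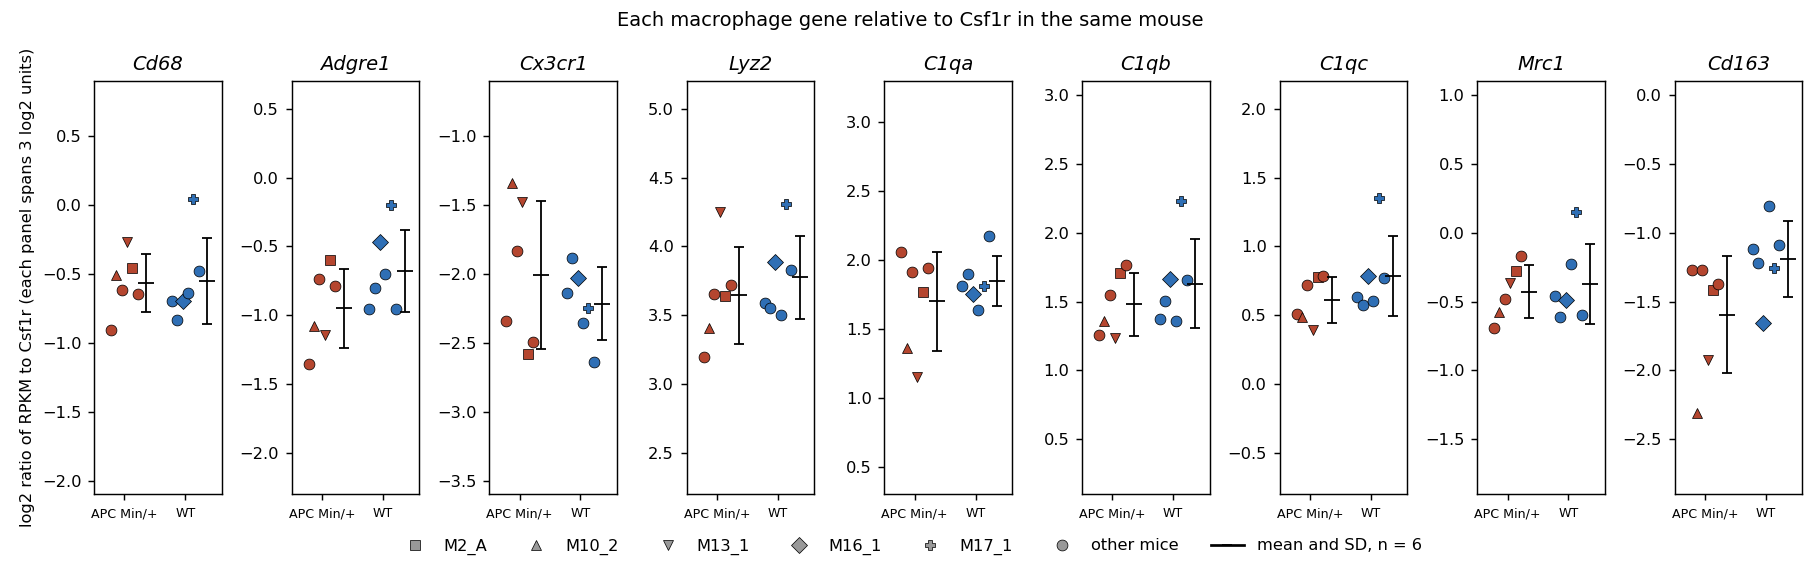
Log2 ratio of the RPKM of each member to that of Csf1r in the same mouse (vertical axes, each spanning 3 log2 units around the member's own mean), for APC Min/+ (red) and WT mice (blue), with mean and SD as bars. M10_2 and M13_1 are the 2 highest for Cx3cr1 and the 2 lowest for C1qa and Cd163, and M17_1 is highest for 6 members.

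For each member, the 3 non-member genes with the highest r over the 12 mice were listed, among genes of a mean of at least 1 CPM. Mgl2, a galactose-binding lectin of macrophages, was first for Adgre1, C1qb, C1qc and Mrc1, with r between 0.95 and 0.97. Tyrobp, the signalling adaptor of myeloid receptors, was first for Lyz2 (r = 0.96), ahead of Pilra and Evi2a (r = 0.95 and 0.94), and the third for Cd68 (r = 0.92), behind Alox5ap (r = 0.93). Folr2, a folate receptor of resident macrophages, was first for Csf1r (r = 0.94), followed by Rab3il1 and Lrrc25 (r = 0.93 and 0.92). The chemokine Pf4 was second for C1qb and C1qc (r = 0.96 each), the third for C1qc was the lipid carrier Apoe (r = 0.95) and the third for C1qb was Nxpe5 (r = 0.95). After Mgl2, Mrc1 was followed by Fcrls and Pea15a (r = 0.94 and 0.93), and Adgre1 by Clec4a1 and Fcer1g (r = 0.95 each). Cd163 had Lzic, Clec10a and Dgcr6 (r = 0.91 to 0.93), Cx3cr1 had Cnp, Icam1 and Siglece (r = 0.90 to 0.91), and C1qa had Tspan17, Ppdpf and Clec11a (r = 0.91 to 0.92). Csf1r, Cx3cr1, C1qa and Cd163 shared none of their 3 with another member. These genes were picked as the highest of all genes, so their r describes these 12 mice and carries no test.

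All 3 ligands of the member receptors had positive log2 differences, and 0 passed the FDR. Il34, a ligand of Csf1r, reached 15.5 CPM in M10_2 and 15.3 CPM in its fellow M13_1, against a range of 2.16 to 3.70 CPM over the other 10 mice. Its log2 difference was 1.25 ± 0.505 (SE; unadjusted p = 0.0279 and FDR 0.908, edgeR's quasi-likelihood test) and turned to -0.11 without those mice. Csf1, the other ligand, ran from 15.4 to 28.2 CPM in APC Min/+ mice and from 8.57 to 20.5 CPM in WT mice, with a log2 difference of 0.41 ± 0.197 (SE; unadjusted p = 0.0587 and FDR 0.908, edgeR's quasi-likelihood test), or 0.22 without M10_2 and M13_1. Cx3cl1, the ligand of Cx3cr1 that epithelial and endothelial cells make, ran from 27.5 to 98.1 CPM in APC Min/+ mice and from 27.1 to 69.0 CPM in WT mice, with a log2 difference of 0.38 ± 0.281 (SE; FDR 0.910, edgeR's quasi-likelihood test), or 0.06 without that pair of mice. For all 3, M10_2 was highest and M13_1 second.

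Beyond the members, 13 other macrophage genes held 4 with a positive and 9 with a negative log2 difference, 0 of them with an unadjusted p below 0.05, and a median of -0.10. The protease gene Ctss had the highest mean RPKM of this list (234) and Ms4a7 the largest log2 difference (-0.36, FDR 0.910, edgeR's quasi-likelihood test). That of Ms4a7 was -0.21 without M10_2 and M13_1, and ran from -0.62 without M2_A to -0.19 without M17_1. Of 10 genes of resident and perivascular macrophages 7 were higher and 3 lower, 0 had an unadjusted p below 0.05, and the median log2 difference was 0.08, or 8 higher and 2 lower with a median of 0.13 without M10_2 and M13_1. Here the lymphatic and macrophage receptor Lyve1 had the highest mean RPKM (13.02), and Cbr2 the largest log2 difference (0.41, FDR 0.908, edgeR's quasi-likelihood test). Cbr2 was highest in M10_2, and its difference was 0.19 without that mouse and 0.12 without M10_2 and M13_1. Among 8 myeloid transcription factors and adaptors 4 were higher and 4 lower, with 0 at that level and a median of 0.02, or 5 higher and 3 lower without M10_2 and M13_1. Tyrobp had the highest mean RPKM of these (17.7), and Cebpb, a transcription factor of myeloid cells, the largest log2 difference (0.30, FDR 0.910, edgeR's quasi-likelihood test), which was 0.12 without M17_1.

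**Figure D5:**
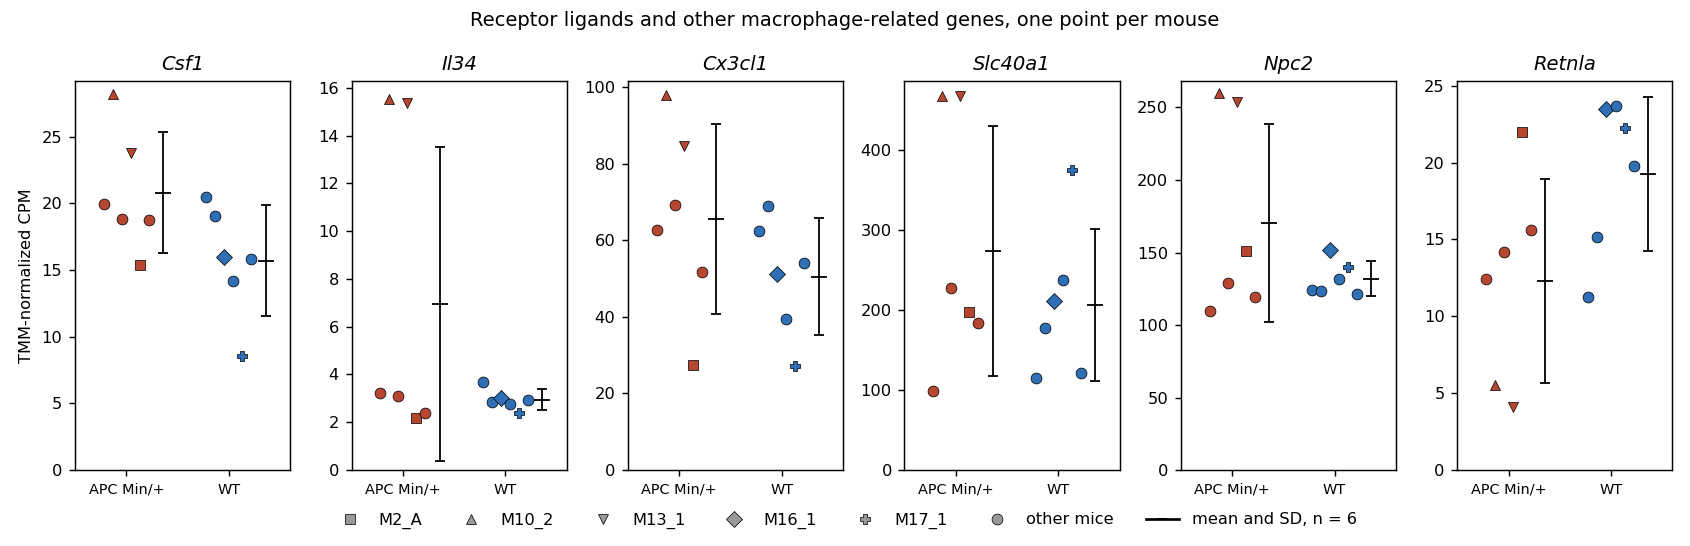
TMM-normalized CPM (vertical axes, from 0) of the ligands Csf1, Il34 and Cx3cl1, of the iron exporter gene Slc40a1, of the lysosomal cholesterol carrier gene Npc2 and of Retnla, an alternative activation gene, in each APC Min/+ (red) and WT mouse (blue), with mean and SD as bars. M10_2 and M13_1 are the highest mice in the first 5 panels and the lowest in the last.

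Genes of alternative activation, a programme tied to tissue repair, were lower in APC Min/+ mice for 8 of 8 by sign of the fitted difference, with a median log2 difference of -0.37 beside -0.01 over all genes. Without M10_2 and M13_1 it was 6 of 8, with a median of -0.20, and 10296 of all 19978 genes tested in that fit were lower. By the quasi-likelihood test over all 12 mice, 0 of the 8 passed the FDR and 1 had an unadjusted p below 0.05. That gene was the cytokine Il10, at 0.0221 to 0.126 CPM in APC Min/+ mice and 0.0961 to 0.214 CPM in WT mice, from 2 to 24 counts per library. The log2 difference was -1.08 ± 0.361 (SE; unadjusted p = 0.0101 and FDR 0.908, edgeR's quasi-likelihood test), the genotypes overlapped, and M13_1 with 2 counts lay under the floor of 3. T cells also make Il10, and 5 of 5 T cell genes were lower in APC Min/+ mice by sign, with and without M10_2 and M13_1. Their summed CPM ran from 7.36 to 11.9 in APC Min/+ mice and from 8.50 to 14.3 in WT mice. None of the 5 passed the FDR, and Cd3g had an unadjusted p of 0.0407 (edgeR's quasi-likelihood test). Without M10_2 and M13_1, 0 of the 5 had an unadjusted p below 0.05 by the same test. The part of T cells in the alternative activation list was not tested. Retnla, a secreted factor, was lowest in M13_1 and M10_2 (4.08 and 5.53 CPM), and its log2 difference of -0.65 (FDR 0.908, edgeR's quasi-likelihood test) was -0.27 without them. Mgl2, the gene most like 4 of the members, had a log2 difference of -0.04 (FDR 0.981, edgeR's quasi-likelihood test), or 0.10 without M10_2 and M13_1.

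Genes of inflammatory activation were sparse. The 9 genes summed to 2.74 to 5.17 CPM in APC Min/+ mice and 2.56 to 5.11 CPM in WT mice, 8 were tested with 4 higher and 4 lower (3 and 5 without M10_2 and M13_1), and 0 had an unadjusted p below 0.05. Il1b, the most abundant per length of these, lay between 0.662 and 1.42 CPM over all mice with a log2 difference of -0.10 (FDR 0.938, edgeR's quasi-likelihood test), or -0.27 without M10_2 and M13_1. Il6, with 0 to 12 counts per library, was not tested. Of 7 genes of monocyte recruitment 4 were higher and 3 lower, with 0 at that level. The largest log2 difference there was that of the monocyte marker Ly6c2, -0.50 (FDR 0.908, edgeR's quasi-likelihood test). The gene was highest in WT mouse M17_1, without which the difference was -0.23.

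Of 8 genes encoding partners of C1q in the complement cascade 4 were higher and 4 lower, 0 had an unadjusted p below 0.05, and the median log2 difference was -0.01. The split was 6 higher and 2 lower without M10_2 and M13_1, with a median of 0.09. The inhibitor Serping1 and the protease C1s1 had the highest mean RPKM (58.1 and 30.7), and the protease C1ra had the largest log2 difference, 0.22 (FDR 0.908, edgeR's quasi-likelihood test), or 0.11 without M17_1. Around Cd163, 10 genes of haemoglobin and iron handling held 4 higher and 6 lower (5 and 5 without M10_2 and M13_1). Hmox1, which degrades the haem that Cd163 brings in, ran from 4.04 to 8.98 CPM in APC Min/+ mice and from 6.29 to 12.9 CPM in WT mice, a log2 difference of -0.47 (unadjusted p = 0.0497 and FDR 0.908, edgeR's quasi-likelihood test). M16_1, the mouse with the most blood gene RNA, was highest, and without it the difference was -0.30. Without M10_2 and M13_1, 0 of the 10 genes had an unadjusted p below 0.05 (same quasi-likelihood test). Slc40a1, the iron exporter, was highest in M13_1 and M10_2 (468 and 467 CPM), with WT mouse M17_1 next at 374 CPM. Its log2 difference of 0.41 (FDR 0.910, edgeR's quasi-likelihood test) was -0.22 without M13_1 and M10_2.

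Of 8 lysosome genes, the compartment in which Cd68 lies, 3 were higher and 5 lower, with 0 at an unadjusted p below 0.05 and a median log2 difference of -0.09. Npc2, a cholesterol carrier, had 260 and 254 CPM in M10_2 and M13_1 and lay between 110 and 152 CPM in the other 10 mice. Its log2 difference was 0.37 (FDR 0.908, edgeR's quasi-likelihood test), or -0.05 without those mice. Il34, Slc40a1 and Npc2 thus shared their highest mice, M10_2 and M13_1, with the posterior Hox genes. The same 2 mice had the lowest adipocyte sums. The part of tissue position or of attached fat in these levels was not tested.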

How the data were processed

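Paired-end RNA libraries of 12 mice were sequenced and, per the labels and the study's methods, the authors aligned the reads with STAR 2.3.0 to GRCm38.p2 and deposited raw gene counts made with featureCounts, 1 table per mouse, with the counted exon length of each gene. The strand setting and the treatment of multimapping reads are not given in the sources used here. Identifiers were matched to symbols in GENCODE M21. The 20311 genes that reached 10 counts in 3 or more mice were fitted in R 4.3.3 with edgeR 4.0.16 (TMM factors from 0.906 to 1.10, quasi-likelihood test, FDR below 0.05 and a fold change of at least 2). TMM factors entered the CPM values, RPKM values used the deposited lengths, and correlations used log2 CPM with a prior count of 0.5. Each standard error is the log2 fold change divided by the root of its F statistic. Ratios within a mouse were tested by exact permutation over 924 splits. The fits were tested on simulated data.

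The members, the gene lists and the tests were chosen with earlier results of these data known. Named beside the members were the receptor ligands, Lyz1, for the companion lists the genes of highest mean RPKM and largest absolute log2 fold change, and for each member the 3 other genes of highest r. Not every gene that rule allows is given, and a few genes are not reported here and were left out of the list counts, whatever their values. Il34, Slc40a1 and Npc2 were tied to 2 libraries after their values were seen. Alternatives were DESeq2 1.42.0, edgeR's exact and likelihood ratio tests, an exact permutation test, other scaling factors and filters, and leaving out each mouse or M10_2 with M13_1. Leaving out M2_A with M16_1 was chosen after seeing the data. Floors cover counting error only, while the standard errors also take in the spread between mice. The labels give no shipment, so it was not a covariate.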

Additional observations from a re-analysis of the deposited data

Results flagged for a closer look

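In 38 groups of 6 mice (each member's CPM and its RPKM ratio to Csf1r, by genotype), 6 held a mouse whose gap to its nearest neighbour was an unusually large share of the group's range. Chance alone flags about 1 in 20 such groups if values are normally distributed. CPM and ratios were used without taking logs, whose distribution was not tested, and all 6 flagged values were the highest of their group. The groups also share mice, so the 6 are not independent.

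Among the CPM values, Cx3cr1 in APC Min/+ mouse M10_2 was 16.09 CPM, with a range of 4.49 to 8.26 CPM over the 5 others of its genotype. Lyz2 in WT mouse M16_1 was 224 CPM, with 118 to 144 CPM in the remaining WT mice. C1qb in the same mouse was 41.2 CPM, against 21.8 to 28.1 CPM in the other WT mice.

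Among the ratios to Csf1r, all 3 belonged to WT mouse M17_1 and share its Csf1r of 26.9 CPM, the lowest of the WT mice, as divisor. Its ratio of Cd68 was 1.03, with the remaining WT mice between 0.562 and 0.717. Its ratio of C1qb was 4.69, against 2.56 to 3.16, and its ratio of C1qc was 2.55, against 1.49 to 1.73.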

How the results depend on the processing

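No member passed the FDR in any of the alternatives, and 0 had an unadjusted p below 0.05 in any of them. The signs of the members' differences changed in several of them. Over all genes, 0 were called except with DESeq2 (27), edgeR's exact test (12) and edgeR's likelihood ratio test (15). With 6 mice a group, the members had a within-genotype SD of 0.349 to 0.578 on the log2 scale, which limits what could be seen. Their lowest count in any mouse was 320, and the part of depth was not tested. No paired analysis was run, because the 12 mice were separate animals and the labels name no pairs. The mouse names carry suffixes, some of which recur in both genotypes, but the sources used here do not say what they mark, so they were not used to pair mice.

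Of 230 alternative values of the members' log2 fold changes 30 changed sign. Without M10_2 and M13_1 the log2 fold change was -0.031 for Cx3cr1, 0.18 for C1qa, 0.077 for C1qb, 0.041 for C1qc and 0.095 for Mrc1. That of Mrc1 was also 0.0049 with DESeq2 and with RLE factors, 0.0057 with no filter and 0.040 with total counts only. Without M2_A and M16_1 that of Cd68 was -0.011 and that of Il1b 0.057. Without M10_2 and M13_1 the log2 fold change was -0.11 for Il34, -0.22 for Slc40a1, -0.054 for Npc2, 0.10 for Mgl2 and 0.031 for Lyz1. The difference of the log2 ratio to Csf1r was then -0.10 for Cx3cr1 and 0.074 for C1qa. Leaving out 1 mouse at a time, the log2 fold change ran from -0.087 to 0.18 for Csf1r, from -0.11 to 0.16 for Cd68, from -0.44 to 0.0083 for Adgre1, from -0.035 to 0.44 for Cx3cr1, from -0.25 to 0.067 for Lyz2, from -0.18 to 0.13 for C1qa, from -0.26 to 0.090 for C1qb, from -0.27 to 0.052 for C1qc and from -0.18 to 0.11 for Mrc1. M2_A gave the lowest of these when left out (M10_2 for Cx3cr1), and M16_1 the highest (M13_1 for C1qa and Mrc1). The ranges were -0.21 to 0.10 for Mgl2 and -0.24 to 0.045 for Il1b. For the log2 ratio to Csf1r they were -0.074 to 0.10 for Cd68 and -0.11 to 0.050 for Mrc1, and between 0 and 1 of the 9 ratios had an exact p below 0.05 (1 without M16_1). The median r of the members was 0.72 without M10_2 and M13_1 and 0.64 without M2_A and M16_1. The causes were not tested.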
